A study of Saccharomyces cerevisiae with 6 samples.

Results

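Nuclear-encoded mRNA was described in mitochondria isolated from 3 glucose-grown cultures of Saccharomyces cerevisiae CEN.PK113-7D, a prototrophic strain that is widely used in studies of yeast physiology. The cells grew in shake flasks in synthetic medium with glucose and were harvested in mid-exponential phase, and the same strain grown on ethanol-glycerol in 3 further cultures makes up the rest of the series. Mitochondria were obtained by spheroplasting, homogenisation and differential centrifugation, their RNA was tailed with a bacterial poly(A) polymerase, and the tailed molecules were sequenced directly on a Nanopore instrument without conversion to cDNA. The members are the 5604 features that the authors class as cytosolic mRNA, of 5667 features in all, after ENO2 was left out. Each of the 3 libraries was rescaled to its own total over these features, so that levels are percent of nuclear mRNA reads. Of the members, 1961 had a mean of at least 10 deposited CPM (reads scaled to a library total of 1000000) and were ranked, and these held 85.8% ± 0.305 (SD, n = 3) of the nuclear mRNA reads. The other 3643 members stayed in the total, and 220 of them had no read in any glucose library.

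The glucose libraries held 931974, 1045259 and 1093126 assigned reads in replicates 1, 2 and 3, of which 121147, 97474 and 107311 lay in nuclear mRNA without ENO2. That was 13.0%, 9.33% and 9.82% of the deposited CPM, while cytosolic rRNA took 72.7%, 80.6% and 81.1% and mitochondrially encoded RNA 7.50%, 6.45% and 6.41%. A feature without a read could hold up to 0.00248%, 0.00308% and 0.00280% of the nuclear mRNA of replicates 1, 2 and 3, the share of 3 reads, and such limits and intervals cover counting error only. ENO2, which encodes the glycolytic enzyme enolase 2, took 6.81%, 3.63% and 2.63% of all CPM, between 14.2 and 28.4 times the next nuclear gene of the same library. The control RNA supplied with Nanopore direct RNA kits is an ENO2 transcript, and the labels do not say whether it was added to these libraries.

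Most mitochondrial proteins are encoded in the nucleus, translated on cytosolic ribosomes and imported. In yeast, part of their mRNA is found at the mitochondrial surface, while mitochondria collected by centrifugation usually also carry endoplasmic reticulum, ribosomes and cytosolic RNA. Whole-cell RNA was not analysed here, so a high share in these libraries can reflect a high level in the cell or a close association with the organelle, and the 2 cannot be told apart. A share of reads is a share of sequenced molecules and fragments. Levels of different genes were also given per kb of feature length, rescaled to the same total. Where a read is a whole molecule, division by length raises short genes, so per-kb values are an alternative scale and not corrected levels. Percentages and orders of genes below are of reads unless per kb is stated.

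The labels were checked against the genes that define them. Of the 26 features of glucose-repressed genes, 1 reached the ranking minimum, which is 3.85%, against 35.0% of all members. It was CIT2, the peroxisomal citrate synthase. Together the 26 features took 0.112%, 0.0882% and 0.104% of nuclear reads. Among them ICL1, isocitrate lyase of the glyoxylate cycle, had 1, 1 and 4 reads, and JEN1, the lactate permease, had 1, 0 and 0. Of genes expressed only in a-type haploids, STE2, the alpha-factor receptor, had 40, 38 and 61 reads, STE6, the a-factor exporter, 23, 24 and 30, and BAR1, the protease that degrades alpha-factor, 6, 12 and 7.50. Their alpha-type counterparts SAG1, an agglutinin, and STE3, the a-factor receptor, together had 2, 1 and 1 reads. Of the genes listed, only 3 of 6 a-type and 2 of 4 alpha-type genes were found by name. The glucose-repressed list was thus at 136, 86 and 112 reads in all, of which CIT2 alone held 98, 55 and 65. The a-type genes found were detected, and the alpha-type genes found were at or near 0.

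Functions of growth and fermentation dominated the nuclear mRNA. The 128 features of cytosolic ribosomal proteins, 2.28% of the members, took 14.8% ± 0.747 of the reads (SD, n = 3), and the 27 features of glycolysis and of ethanol and glycerol formation, 0.482% of the members, took 10.3% ± 0.405. Amino acid synthesis took 7.31% ± 0.309 with 84 features, and the 4 lists of surface, transport and secretory proteins took 7.71% ± 0.511 with 139. The lists of mitochondrial proteins, 254 features, were 4.53% of the members and took 4.58% ± 0.0975 of the reads. Their part of the reads was thus 1.01 times their part of the members. Among the single mitochondrial lists this ratio ran from 0.432 for mitochondrial gene expression to 2.33 for mitochondrial metabolism. The same ratio was 6.49 for ribosomal proteins, 21.5 for glycolysis and fermentation and 0.456 for features in none of the lists. The lists do not overlap, so those of mitochondrial proteins leave out mitochondrial enzymes placed elsewhere, such as ILV3 under amino acid synthesis, and any in no list. The 4595 features in none of the lists took 37.4% ± 0.764.

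**Figure D1:**
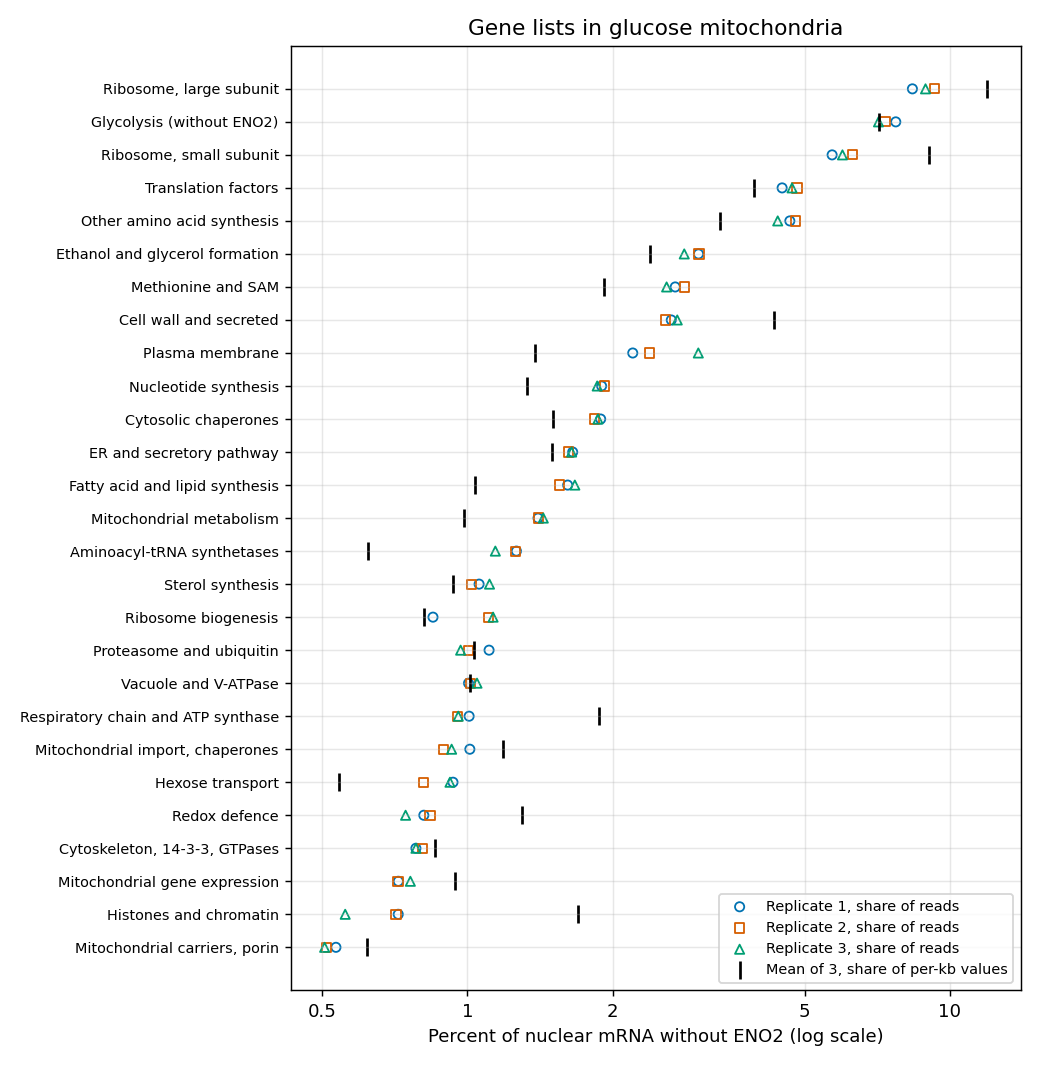
Each row is 1 list of genes, with its percent of nuclear mRNA without ENO2 on a log axis: open circles, squares and triangles are the shares of reads in glucose replicates 1, 2 and 3, and black bars the mean of 3 shares of per-kb values. Large-subunit ribosomal proteins lie at the top with 8.36%, 9.28% and 8.90% of reads and mitochondrial carriers and porin at the bottom with 0.534%, 0.510% and 0.506%, and the per-kb bars lie to the right of the read shares for lists of short genes such as histones.

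With ENO2 left out, the reads were spread over many genes without a single dominant one. The 10 highest features held 10.8% ± 0.145 of the reads, the 25 highest 17.3% ± 0.0999 and the 100 highest 32.0% ± 0.519 (SD, n = 3). Between them, 58 features made up 25% of the reads, 289 made up 50% and 1092 made up 75%. Of the 25 highest by reads, 8 were glycolytic, 4 encoded translation factors, 3 and 2 encoded proteins of the large and the small ribosomal subunit and 2 were enzymes of ethanol formation. None of the 25 belonged to a list of mitochondrial proteins, and 3 of the 100 highest did. These lists hold 4.53% of the members and leave out mitochondrial enzymes placed in other lists, such as ILV3. Per kb, 17 of these 25 were again among the 25 highest, and ribosomal proteins made up 29 and 18 of the 100 highest for the large and the small subunit, against 17 and 12 by reads.

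Without ENO2, glycolysis was led by TDH3 (chromosome 7, 909094 to 910092, minus strand of the CEN.PK113-7D assembly, as all positions here), the main isozyme of glyceraldehyde-3-phosphate dehydrogenase. TDH3 was also the highest nuclear gene by reads once ENO2 was left out. TDH3 took 1.85%, 1.88% and 1.89% of the reads in replicates 1, 2 and 3, with 95% Wilson intervals of 1.77% to 1.92%, 1.80% to 1.97% and 1.81% to 1.97%. The intervals overlap in every pair of libraries, and its coefficient of variation (CV, the SD as a percent of the mean) of 1.19% was the smallest among the 192 members with a mean of at least 100 CPM. FBA1 (chromosome 11, 332432 to 333511, minus strand), fructose-bisphosphate aldolase, took 1.52%, 1.38% and 1.38%, and CDC19 (chromosome 1, 61012 to 62514, plus strand), pyruvate kinase, took 0.864%, 0.829% and 0.812%. Further down the pathway's order by reads were TDH2, a second dehydrogenase isozyme, with 0.657% ± 0.0349, GPM1, phosphoglycerate mutase, with 0.601% ± 0.0450, PGK1, phosphoglycerate kinase, with 0.584% ± 0.0301 and TPI1, triosephosphate isomerase, with 0.378% ± 0.0398 (SD, n = 3). All 15 glycolytic features were ranked, their sum was 7.72%, 7.33% and 7.11%, and per kb it was 7.12% ± 0.192.

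ENO1, the second enolase gene, had shares of 0.411%, 0.320% and 0.296% in replicates 1, 2 and 3 and a CV of 17.8%. Replicate 1 was the highest library both for ENO1 and for ENO2, which took 6.81%, 3.63% and 2.63% of all CPM, and ENO1 stood at 0.785%, 0.821% and 1.11% of the ENO2 value. The 2 genes are close paralogs, and the part of ENO2 reads assigned to ENO1 was not tested. Without ENO1 the glycolytic sum was 7.31%, 7.02% and 6.81%.

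Ethanol formation rested on PDC1 and ADH1. PDC1 (chromosome 12, 211492 to 213183, minus strand), the main pyruvate decarboxylase, took 1.46%, 1.49% and 1.40% of the reads, and ADH1 (chromosome 15, 153538 to 154584, minus strand), the alcohol dehydrogenase that makes ethanol from acetaldehyde, took 1.04%, 1.01% and 0.920%. Both were lowest in replicate 3, and the 3 values of each lay within 3.14% and 6.37% CV. RHR2, a glycerol-3-phosphatase of glycerol formation, had 0.173% ± 0.00598 (SD, n = 3). Of the 12 features of this list 9 were ranked, and the sum was 2.95% ± 0.116, or 2.39% ± 0.0547 per kb. PDC1 and ADH1 both hold split reads, and without features that hold them the list took 0.596% of the remaining reads. Glucose enters through hexose transporters, of which 6 of 8 were ranked with a sum of 0.888% ± 0.0673 by reads and 0.542% ± 0.0452 per kb. HXT3, a low-affinity transporter, led with 0.544%, 0.465% and 0.511%, and HXT4, of high affinity, had 0.179% ± 0.0199 and HXT1, of low affinity, 0.0837% ± 0.00923. Reads of HXT3, HXT4 and HXT1 were partly split with other features, so their division among these paralogs is uncertain, and the list took 0.154% without features that hold split reads.

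**Figure D2:**
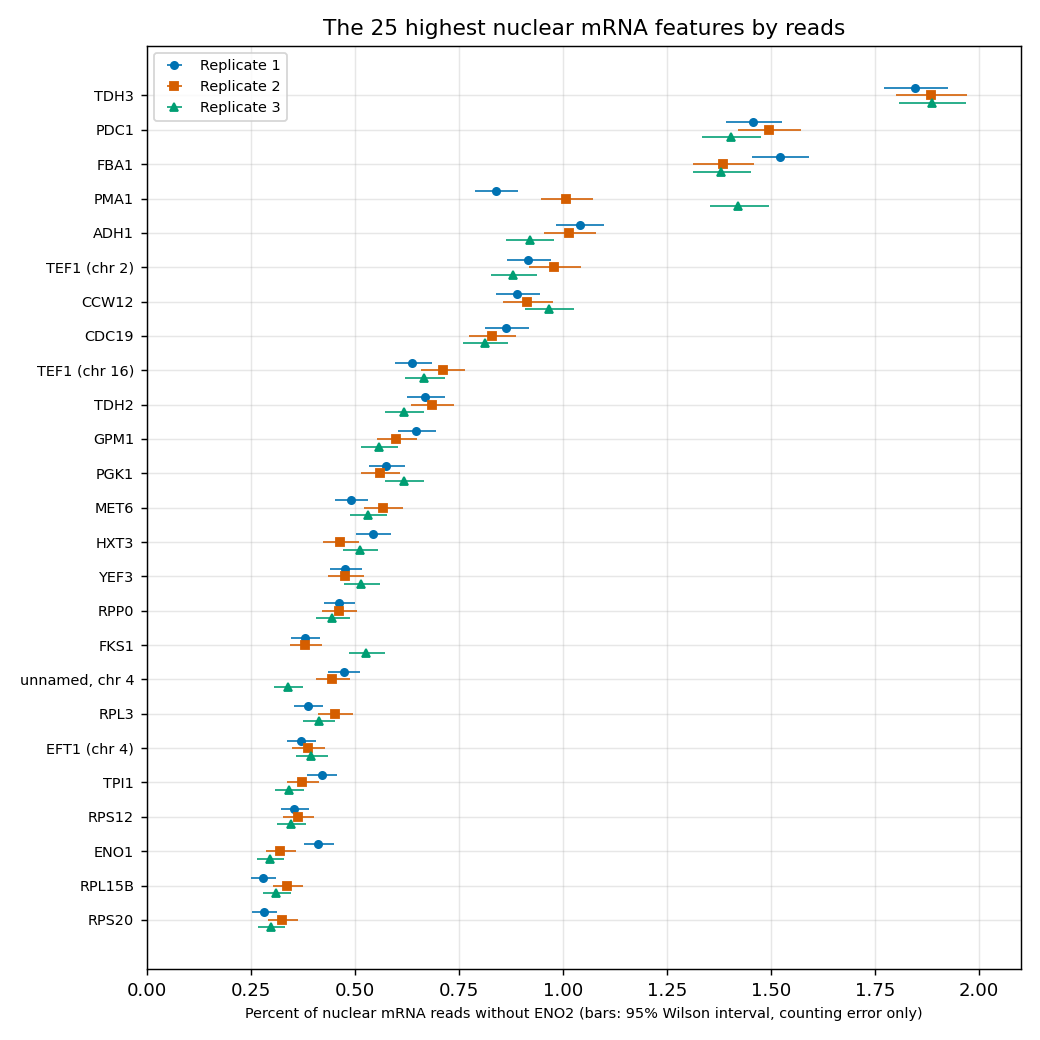
The 25 highest nuclear mRNA features by mean share of reads run down the page, with blue circles, orange squares and green triangles for glucose replicates 1, 2 and 3 and bars for 95% Wilson intervals of counting error. TDH3 lies near 2% with overlapping intervals, while the points of PMA1, at 0.839%, 1.01% and 1.42%, stand apart from one another.

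The cytosolic translation machinery was the largest function by reads with ENO2 left out. Large-subunit proteins took 8.36%, 9.28% and 8.90% of the reads and small-subunit proteins 5.70%, 6.27% and 5.99% in replicates 1, 2 and 3, and each sum was lowest in replicate 1 and highest in replicate 2. Of the 128 ribosomal features, 127 were ranked, and the median share over all 128 was 0.0975%, against 0.0191% for all ranked members. RPP0 (chromosome 12, 765427 to 766365, plus strand), the core protein of the stalk, led the large subunit with 0.461%, 0.462% and 0.445%. It was followed by RPL3 with 0.417% ± 0.0326 and the chromosome 12 feature named RPL15B with 0.308% ± 0.0286. RPS12 with 0.354% ± 0.00873 and RPS20 with 0.301% ± 0.0221 led the small subunit (SD, n = 3). Per kb the ribosomal sum was 21.0% ± 1.28, with 12.0% ± 0.834 for the large and 9.05% ± 0.456 for the small subunit, although many of these features include an intron in their length, which lowers their per-kb values.

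Most yeast ribosomal proteins are encoded by gene pairs of nearly the same sequence, and the tables give some pairs a single name. Names are as deposited and were not matched by position, so the copy of a pair that a name stands for is uncertain. Over all members 191 features shared 84 gene names, and at least 33 ribosomal features held reads split with another feature. Sums over the family are therefore firmer than values of single copies. The same holds for elongation factors. The name TEF1, for translation elongation factor eEF1A, stands for a feature on chromosome 2 with 0.917%, 0.979% and 0.880% and for one on chromosome 16 with 0.638%, 0.711% and 0.667%. EFT1, for elongation factor eEF2, stands for a feature on chromosome 4 with 0.384% ± 0.0131 and for a second copy on chromosome 15. YEF3 (chromosome 12, 596588 to 599722, plus strand), the fungal elongation factor eEF3, took 0.476%, 0.477% and 0.515%. Translation factors together took 4.67% ± 0.167 with 38 of 41 features ranked, or 3.92% ± 0.219 per kb. Both TEF1 features, the EFT1 feature on chromosome 4 and YEF3 hold split reads, and without such features the list took 2.07%.

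Aminoacyl-tRNA synthetases, which charge tRNAs, took 1.22% ± 0.0686 by reads and 0.623% ± 0.0151 per kb with 19 of 21 features ranked, led by ILS1 for isoleucine with 0.140% ± 0.0212, VAS1 for valine with 0.133% ± 0.0228 and THS1 for threonine with 0.0921% ± 0.00349 (SD, n = 3). Ribosome biogenesis factors took 0.849%, 1.11% and 1.13% with 32 of 39 features ranked, RRP5, a factor of pre-rRNA processing, at 0.0737% ± 0.00490 and DBP2, an RNA helicase, at 0.0507% ± 0.00966. The low value of replicate 1 came with NOG2, a GTPase of large-subunit assembly whose gene also holds a small nucleolar RNA, and without NOG2 the list stood at 0.755%, 0.848% and 0.867%.

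Biosynthesis of amino acids, nucleotides and lipids formed a further part of the profile. The methionine and S-adenosylmethionine list took 2.70% ± 0.115 with all 24 features ranked. MET6 (chromosome 5, 340660 to 342963, minus strand), the cobalamin-independent methionine synthase, led it with 0.491%, 0.567% and 0.531%, ahead of SHM2, cytosolic serine hydroxymethyltransferase, with 0.287% ± 0.0137 and MET17, O-acetylhomoserine sulfhydrylase, with 0.261% ± 0.0242 (SD, n = 3). MET5, the sulfite reductase subunit, had 0.138%, 0.141% and 0.137% and a CV of 1.34%, 1 of the 5 smallest. The other amino acid genes took 4.61% ± 0.196 with 54 of 60 ranked, led by GLN1, glutamine synthetase, with 0.294% ± 0.0130, GDH1, the NADP-dependent glutamate dehydrogenase, with 0.257% ± 0.0206 and ILV3, dihydroxyacid dehydratase of branched-chain synthesis in mitochondria, with 0.216% ± 0.0273. Both lists were lower per kb, at 1.92% ± 0.0568 and 3.34% ± 0.101.

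Nucleotide synthesis took 1.89% ± 0.0325 with 35 of 41 features ranked, and its 3 highest were ADE17, an enzyme of the last steps of purine synthesis, with 0.217% ± 0.0207, ADE3, an enzyme of folate metabolism, with 0.205% ± 0.0317 and ADE6, of an earlier purine step, with 0.189% ± 0.0115 (SD, n = 3). Fatty acid and lipid synthesis took 1.61% ± 0.0591 by reads and 1.04% ± 0.0311 per kb with 25 of 27 ranked. FAS1 and FAS2, the subunits of fatty acid synthase and among the longest members with 6156 and 5664 bases, had 0.235%, 0.223% and 0.247% and 0.210%, 0.229% and 0.219% of the reads. OLE1, the fatty acid desaturase, had 0.230% ± 0.0369. All 25 genes of sterol synthesis were ranked with a sum of 1.06% ± 0.0467, led by ERG11, lanosterol demethylase, with 0.147% ± 0.0196, ERG3, a sterol desaturase, with 0.112% ± 0.00595 and ERG25, a methyl sterol oxidase, with 0.0935% ± 0.0128.

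mRNAs of proteins that enter the endoplasmic reticulum held several of the highest ranks by reads. PMA1 (chromosome 7, 497791 to 500547, minus strand), the proton pump of the plasma membrane, took 0.839%, 1.01% and 1.42% of the reads in replicates 1, 2 and 3. Its replicate 3 stood above the other libraries, the 95% Wilson intervals of the 3 libraries do not overlap, and its CV of 27.5% was among the 5 largest of the members with a mean of at least 100 CPM. Other plasma membrane genes were MRH1, a membrane protein related to heat shock protein Hsp30, with 0.209% ± 0.0235, and FCY2, the purine-cytosine permease, with 0.167% ± 0.00945 (SD, n = 3). The plasma membrane list took 2.20%, 2.39% and 3.01%, and 1.36%, 1.38% and 1.59% without PMA1, with 28 of 39 features ranked. Per kb the list took 1.38% ± 0.226, and by reads 1.67% without features that hold split reads, of which PMA1 is 1. FKS1 (chromosome 12, 769537 to 775167, plus strand), a glucan synthase of the plasma membrane that is in none of the lists, had 0.379%, 0.380% and 0.526%, again with replicate 3 above the others. Per kb these long genes stood lower, PMA1 at rank 29 against 4 by reads and FKS1 at rank 227 against 17 by reads.

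Cell wall and secreted proteins took 2.65% ± 0.0762 of the reads and 4.31% ± 0.132 per kb, with 28 of 43 features ranked. CCW12 (chromosome 12, 348711 to 349112, minus strand), a small mannoprotein of the wall, took 0.890%, 0.915% and 0.966% of the reads and ranked 7 by reads and 1 per kb, where it took 2.39% ± 0.151 (SD, n = 3). GAS1, a glucan-modifying enzyme, had 0.256% ± 0.0156 and ECM33, a wall protein, 0.187% ± 0.0198 of the reads. The ER and secretory list took 1.65%, 1.62% and 1.64%, with 42 of 49 ranked, and was led by PDI1, protein disulfide isomerase, with 0.165% ± 0.0176, PSA1, which makes GDP-mannose, with 0.106% ± 0.00520 and KAR2, the chaperone of the lumen, with 0.0878% ± 0.0151. Vacuolar genes took 1.02% ± 0.0221 with 22 of 26 ranked, led by VPH1 with 0.128% ± 0.0169, VMA1 with 0.113% ± 0.0189 and VMA3 with 0.104% ± 0.0252, subunits of the vacuolar proton pump.

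The lists of mitochondrial proteins, without mitochondrial enzymes placed in other lists, took 4.67%, 4.48% and 4.59% of the reads in replicates 1, 2 and 3. Per kb they took 5.60% ± 0.254. Of their 254 features 134 were ranked, which is 52.8%, against 35.0% of all members. The share of ranked features differed between roles. In mitochondrial metabolism 30 of 34 were ranked, in the respiratory chain and ATP synthase 37 of 43, in import and chaperones 34 of 55, among carriers and outer membrane proteins 13 of 27 and in mitochondrial gene expression, mostly ribosomal proteins of the organelle, 20 of 95.

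Mitochondrial metabolism had the largest sum by reads, 1.41% ± 0.0195 (SD, n = 3). Among its highest genes were GCV2, the glycine decarboxylase subunit, with 0.153%, 0.152% and 0.160% and MAE1, malic enzyme, with 0.110% ± 0.00734. Respiratory chain and ATP synthase genes took 0.973% ± 0.0307 of the reads and 1.87% ± 0.127 per kb, where they were the largest of the 5 mitochondrial lists. ATP2 (chromosome 10, 642573 to 644108, plus strand), the beta subunit of ATP synthase, was the highest gene of all mitochondrial lists by reads, with 0.187%, 0.176% and 0.188% and rank 65. Its mRNA is known in yeast to lie close to mitochondria. Per kb ATP2 stood at rank 125, below the carrier gene PET9 at rank 116. The alpha subunit gene ATP1 had 0.0780%, 0.0626% and 0.103%, below ATP2 in each library by reads and also per kb, where ATP2 took 0.125% ± 0.00599 and ATP1 0.0516% ± 0.0138. COR1, a core subunit of the cytochrome bc1 complex, had 0.0431% ± 0.00716.

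Import components and matrix chaperones took 0.944% ± 0.0611, led by SSC1, the matrix Hsp70, with 0.107% ± 0.00654, HSP60, the chaperonin, with 0.0781% ± 0.00804 and PIM1, the Lon protease, with 0.0433% ± 0.00422 (SD, n = 3). Carriers and outer membrane proteins took 0.517% ± 0.0151. PET9, the major ADP/ATP carrier, had 0.102%, 0.117% and 0.140%, POR1, the outer membrane porin, 0.0768%, 0.0595% and 0.0513% and ODC2, a carrier of oxodicarboxylates, 0.0545% ± 0.0141. The 95 features of mitochondrial gene expression took 0.719%, 0.718% and 0.762% in all, with a median over all 95 of 0.00622% per feature. Its highest were TUF1, the mitochondrial elongation factor Tu, with 0.0449% ± 0.00676, MSS116, an RNA helicase of intron splicing, with 0.0272%, 0.0472% and 0.0513% and MEF1, elongation factor G, with 0.0245% ± 0.00378.

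The remaining lists were small. Cytosolic chaperones took 1.86% ± 0.0272 with 27 of 32 features ranked, led by the ribosome-bound Hsp70 genes SSB1 with 0.254% ± 0.0351 and SSB2 with 0.203% ± 0.0153 and by SSA2, a general cytosolic Hsp70, with 0.194% ± 0.00896 (SD, n = 3). Proteasome and ubiquitin genes took 1.03% ± 0.0731 with 36 of 37 ranked and no member above 0.0874%, and their 3 highest were CDC48, a segregase, with 0.0874% ± 0.00480, RPN2, a regulatory subunit, with 0.0616% ± 0.0110 and UBC4, a ubiquitin conjugase, with 0.0491% ± 0.0128. Redox defence took 0.798% ± 0.0477 by reads, 0.456% without features that hold split reads and 1.30% ± 0.0723 per kb, with 17 of 22 ranked, led by GND1, 6-phosphogluconate dehydrogenase, with 0.199% ± 0.0247, SOD1, superoxide dismutase, with 0.115% ± 0.0173 and AHP1, a peroxiredoxin, with 0.0963% ± 0.00739. Cytoskeleton and signalling genes took 0.791% ± 0.0152 with 19 of 22 ranked, led by ACT1, actin, with 0.197% ± 0.0191, GSP1, the Ran GTPase, with 0.0924% ± 0.0107 and BMH1, a 14-3-3 protein, with 0.0723% ± 0.00879. Histones and other chromatin proteins took 0.719%, 0.711% and 0.558%, with all 13 features ranked, and were lowest in replicate 3. Per kb they took 1.69% ± 0.208, against 0.663% ± 0.0906 by reads. HTB1, histone H2B, had 0.144%, 0.148% and 0.0927% and HTA2, histone H2A, 0.0924%, 0.0934% and 0.0634%. The chromosome 14 feature named HHT1, for histone H3, had 0.134%, 0.116% and 0.122%.

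The ranking ends in genes with about 10 reads per library. Just above the minimum of 10 CPM lay ARC15 with 10.002 CPM, HTZ1 with 10.012 CPM and BUD4 with 10.023 CPM. Just below it lay CSH1 and GCN3 with 9.987 CPM each and EBS1 with 9.984 CPM. Their levels cannot be told from one another at this depth, since ARC15 had 7.50, 11 and 12.5 reads and GCN3 had 13, 11 and 6. Reads that are not whole were split between features by the authors' counting.

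The 3 libraries gave similar orders for the highest genes and a wider spread among genes with few reads. Over the 1961 ranked members, Pearson's r of log2 shares (scaled to a total of 1000000, plus a pseudocount of 1) was 0.926 for replicates 1 and 2, 0.918 for replicates 1 and 3 and 0.922 for replicates 2 and 3, and Spearman's rho was 0.854 for replicates 1 and 2, 0.840 for replicates 1 and 3 and 0.850 for replicates 2 and 3. These are correlations across genes, which are not replicates. Of the 10 highest genes of each library, 9 were common to all 3 libraries, and so were 22 of the 25 and 87 of the 100 highest. Between 76.2% and 78.8% of the ranked genes differed by less than 1.5-fold between the libraries of a pair, and between 93.9% and 94.7% by less than 2-fold. Over all 3 libraries at once, 57.9% of the ranked genes stayed within 1.5-fold and 86.5% within 2-fold, and of the 1289 genes with a mean under 30 reads 44.2% stayed within 1.5-fold. The chi-square per degree of freedom of the reads was 1.31 for replicates 1 and 2, 1.72 for replicates 1 and 3 and 1.30 for replicates 2 and 3, where counting error of whole reads alone gives 1, as a description of these libraries, some of whose reads are split. No 2 libraries held the same values.

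**Figure D3:**
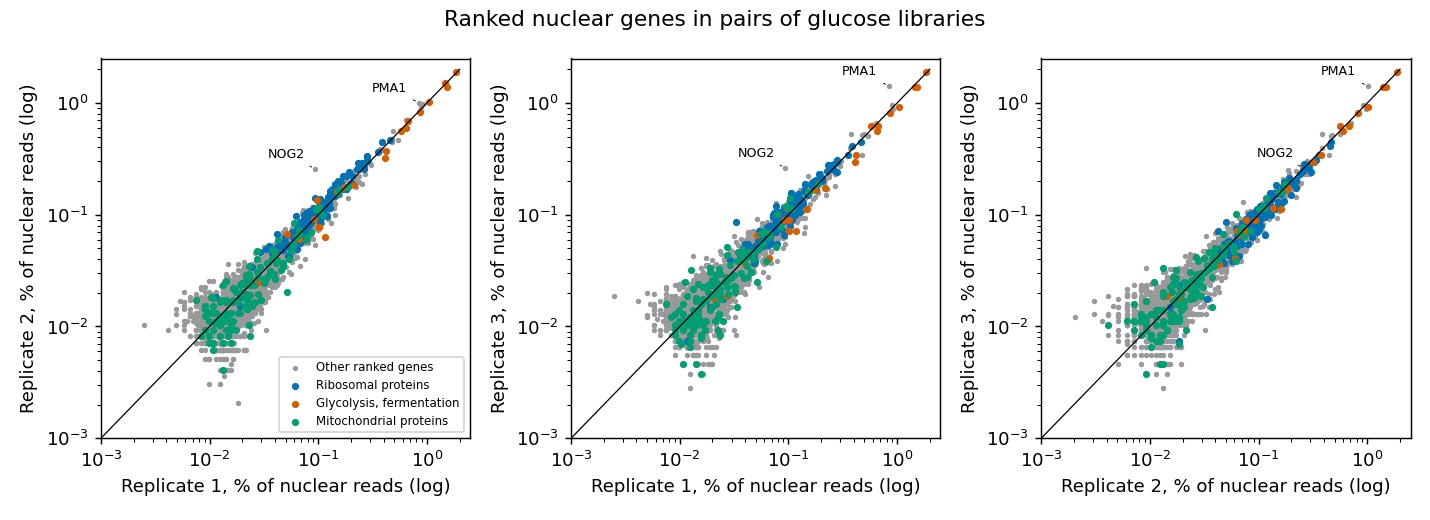
Each panel plots the share of nuclear mRNA reads of the ranked genes in 1 glucose library against another on log axes, with the line of equal shares. Points are genes, coloured for ribosomal proteins (blue), glycolysis and fermentation (orange), mitochondrial proteins (green) and others (grey), and Pearson's r on log2 shares lies between 0.918 and 0.926. PMA1 lies above the line in both panels of replicate 3, and NOG2 above it in both panels of replicate 1.

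The sums over functions were also set against counting error. The CV of the list sums was 5.04% for ribosomal proteins, 3.91% for glycolysis and fermentation, 4.23% for amino acid synthesis and 2.13% for mitochondrial proteins, where counting error gives 0.790%, 0.948%, 1.13% and 1.42%. The ER and secretory list and mitochondrial metabolism had CVs of 0.964% and 1.38%, below the 2.38% and 2.56% that counting error gives. The plasma membrane list, ribosome biogenesis and histones stood apart with 16.7%, 15.2% and 13.7%. Without PMA1 the plasma membrane list stood at 8.72%, and without NOG2 ribosome biogenesis stood at 7.27%, so 1 gene carried much of the spread in each.

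In genes with few reads the spread between libraries was about as large as counting error gives. For 1289 ranked genes with a mean under 30 reads, the median CV over the 3 libraries was 22.3%, and counting alone gives a median of 21.9%. It was 13.6% against 12.2% for 475 genes with 30 to 100 reads and 9.98% against 7.11% for 170 genes with 100 to 300 reads. Genes with 300 to 1000 reads, 20 in number, had a median CV of 6.29%, where counting gives 3.92%. The spread left after counting error was removed was 4.89% under 30 reads and 7.32%, 8.42% and 5.99% in the next 3 depth classes. Under 100 reads this estimate was not checked by simulation. The labels give a separate culture for each library and no day or run, so differences between cultures and technical differences cannot be told apart.

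**Figure D4:**
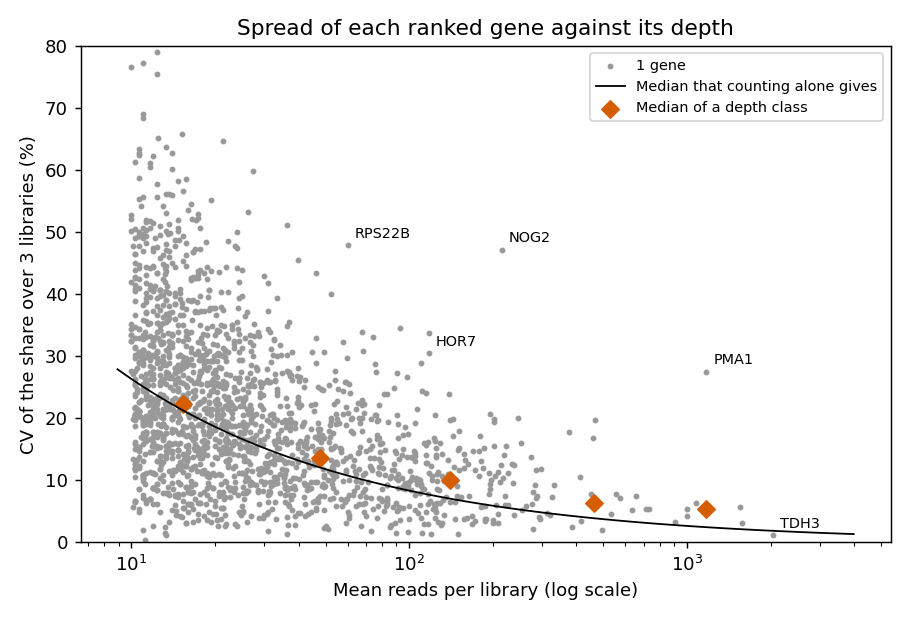
The CV of each ranked gene over the 3 glucose libraries (percent) is plotted against its mean reads per library (log axis), with the median that counting error alone gives as a line and the median of each depth class as a diamond. The diamonds run close to the line under 100 reads and above it at higher depth, NOG2, RPS22B, HOR7 and PMA1 stand out above, and 1 gene above the axis limit is not drawn.

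Among the 192 members with a mean of at least 100 CPM, the median CV was 9.32%. The smallest CVs belonged to TDH3, MET5, the chromosome 4 feature named RPL35B with 1.40%, RPL34B with 1.55% and RPP0 with 2.04%. The largest belonged to NOG2 with 47.2%, to an unnamed feature of 204 bases on chromosome 16 with 33.7%, and to HOR7, MEP2 and PMA1. HOR7, named for its response to high osmolarity and with 180 bases in all, had 0.142%, 0.0995% and 0.0783% of the reads, with replicate 1 the highest. MEP2, an ammonium permease, had 0.0999%, 0.0723% and 0.130%, with replicate 3 the highest. Of the 192 genes, 47 were highest in replicate 1, 76 in replicate 2 and 69 in replicate 3. The named extremes were picked from many genes, and no test of single genes between libraries is possible with 1 library each.

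Share of reads and feature length were only weakly related across the ranked genes. Ranked members had a median length of 1443 bases and those below the minimum 1158. Spearman's rho of share and length across the ranked genes was -0.0683, as a description across genes that leaves out members below the minimum. The part of the features that was ranked rose with each length class, from 22.9% up to 300 bases to 76.9% over 5000 bases. Features up to 300 bases took 2.07%, 1.92% and 1.62% of the reads in replicates 1, 2 and 3, and features over 5000 bases 2.64%, 2.63% and 2.95%. Replicate 3 was the lowest library in each of the 4 classes up to 1500 bases and the highest in each of the 4 classes above. The class over 1000 and up to 1500 bases held the largest part, 27.9% ± 0.200 (SD, n = 3). The same library, replicate 3, was the highest for PMA1 and FKS1 and the lowest for the histone list and the unnamed short features, and the part of length in these differences was not tested.

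**Figure D5:**
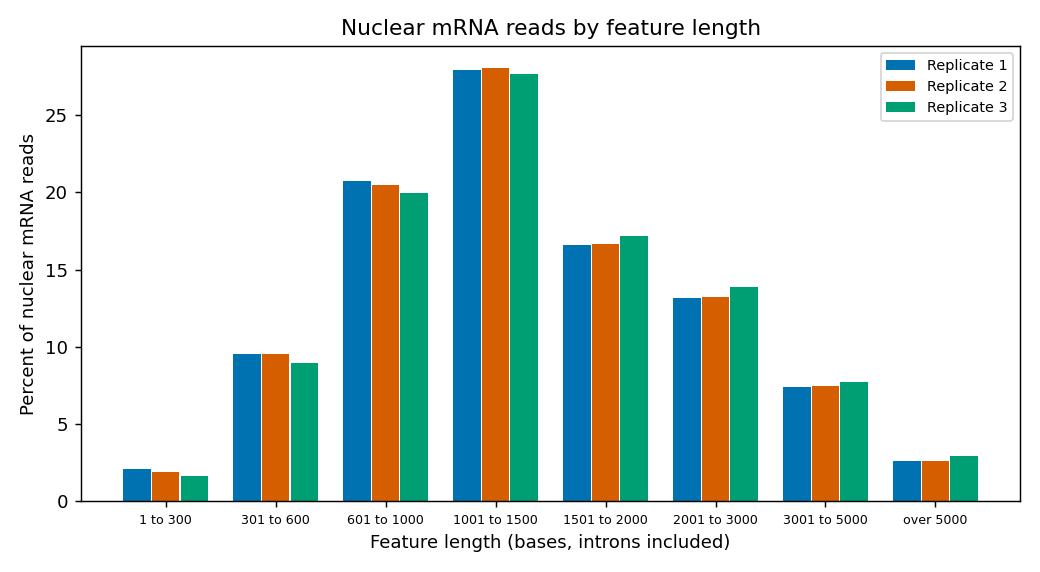
Bars give the percent of nuclear mRNA reads in 8 classes of feature length in bases, introns included, for glucose replicates 1 (blue), 2 (orange) and 3 (green). Each library peaks in the class over 1000 and up to 1500 bases at 27.9%, 28.1% and 27.7%, and replicate 3 is the lowest in every class up to 1500 bases and the highest in every longer one.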

How the data were processed

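RNA of isolated mitochondria was sequenced by Nanopore direct RNA sequencing (kit SQK-RNA002, per the labels' protocols) in 3 glucose and 3 ethanol cultures. The authors deposited CPM, each library summing to 1000000 over the listed features. Positions are on a CEN.PK113-7D assembly, per the sequence names in the files, and the deposited feature length in bases is the span from start to end. STAR 2.5.4a, SAMtools, featureCounts and edgeR are named in the submitters' processing notes. The role of each and any read filter are not given in the sources used here.

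The glucose columns were used. The CPM worth of 1 read, between 0.915 and 1.07, was read from the steps of the values. Of these, 89.1% to 90.5% were whole reads (within 0.02 read), under the 95% needed for a count test, and the rest were split reads. A feature was taken to hold split reads where its value in any library was not whole. Features whose split reads add up to whole numbers were therefore missed. Rows classed cyto_mrna without ENO2 were rescaled to their own total, and per kb after division by length. Names were matched to RefSeq (S288C, R64) for 4819 features, by name and not by position, and 785 others, with 5.19% of the reads, were not named. The gene lists do not overlap. Members and lists were chosen with earlier results of these data known. The genes named follow a rule: the 25 highest, the 3 highest of each list, 3 on each side of the minimum, and the 5 smallest and 5 largest CVs at 100 CPM or more. Others were named after their values were seen, and 2 genes that the rule names are not reported here. As 1 group is described, no test between groups was made, and ethanol values were not used. The CV estimate was tested on simulated whole reads, for genes with a mean of at least 100 reads. Split reads and lower depths were not covered, and its tolerance was about as large as the smaller spreads reported. Alternatives were the per-kb scale, ENO2 kept, filters, pooled reads, no split reads, pseudocounts, TMM factors and leaving out each library. Python 3.11.15, numpy 2.4.6, pandas 2.3.3, scipy 1.17.1 and matplotlib 3.10.9 were used. Whether the replicates differ in more than culture is not stated. Every value column was matched to a sample.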

Additional observations from a re-analysis of the deposited data

How the results depend on the processing

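Shares depend on what enters the total. ENO2 is in none of the lists, so where it is kept it enters only the total. Per kb they were 21.0% for ribosomal proteins, 9.51% for glycolysis and fermentation, 5.26% for amino acid synthesis, 7.73% for secreted and membrane proteins, 5.60% for mitochondrial proteins. With ENO2 kept they were 10.7% for ribosomal proteins, 7.44% for glycolysis and fermentation, 5.27% for amino acid synthesis, 5.58% for secreted and membrane proteins, 3.30% for mitochondrial proteins, with only genes of at least 10 CPM 17.3% for ribosomal proteins, 12.0% for glycolysis and fermentation, 8.47% for amino acid synthesis, 8.83% for secreted and membrane proteins, 4.61% for mitochondrial proteins, and of at least 50 CPM 25.6% for ribosomal proteins, 18.0% for glycolysis and fermentation, 11.1% for amino acid synthesis, 10.7% for secreted and membrane proteins, 2.88% for mitochondrial proteins. Without features that hold split reads they were 15.0% for ribosomal proteins, 9.64% for glycolysis and fermentation, 6.29% for amino acid synthesis, 6.20% for secreted and membrane proteins, 4.77% for mitochondrial proteins. Single lists moved further, and for lists of functions the values that moved by over 1.5 times per kb or without split reads stand beside each list. Pooling reads, or leaving out 2-micron plasmid features or hosts of small non-coding RNA genes (both added after seeing the data), moved each of the 5 by less than its SD. Without 1 library the shares in percent were 14.5 to 15.2 for ribosomal proteins, 10.1 to 10.5 for glycolysis and fermentation, 7.17 to 7.47 for amino acid synthesis, 7.41 to 7.86 for secreted and membrane proteins and 4.53 to 4.63 for mitochondrial proteins. The 25 highest took 21.3% per kb, 40.1% with ENO2, 20.2% and 30.6% of totals limited to genes of at least 10 and 50 CPM, and 17.3 to 17.4% without 1 library. The ranked genes numbered 3325 at 5 CPM, 411 at 50 CPM, 1453 at 10 CPM in every library and 1739 to 2099 without 1 library. The median correlation of pairs, 0.922 as reported, was 0.928 with a pseudocount of 10, 0.849 without a filter, 0.959 at 50 CPM, 0.964 at 100 CPM (added after seeing the data), 0.928 on deposited CPM, 0.850 as Spearman's rho, 0.905 without ribosomal protein genes and 0.918 to 0.926 without 1 library. Depth limits single genes near 10 CPM, where counting error is as large as the spread. No paired analysis was possible because 1 group is described and no result comes from a test between groups.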

Other observations

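Some features hold a second gene. In the RefSeq annotation of S288C, 8 members carry a small nucleolar RNA gene inside them on the same strand, all of them were ranked, and as the RNA was tailed with an enzyme, RNA without a natural tail could also be sequenced. Together these features took 0.833%, 1.13% and 1.12% of nuclear reads in replicates 1, 2 and 3. NOG2, which hosts SNR191, had 0.0933%, 0.258% and 0.263%, and RPS22B, which hosts SNR44 and was named after its values were seen, had 0.0330%, 0.0498% and 0.0857%, so that both were lowest in replicate 1. ASC1, which hosts SNR24, had 0.242%, 0.273% and 0.277%, EFB1, which hosts SNR18, 0.153%, 0.194% and 0.159%, and TEF4, which hosts SNR38, 0.118%, 0.111% and 0.126%. Reads of the host mRNA and of the small RNA cannot be separated in these tables, and their parts were not tested.

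Several short or unnamed features ranked high. A feature of 201 bases that the tables call uncharacterized (chromosome 4, 1468781 to 1468981, minus strand) took 0.473%, 0.446% and 0.339% of the reads, rank 18 by reads and 2 per kb. A second one of 204 bases (chromosome 16, 654107 to 654310, plus strand) took 0.139%, 0.114% and 0.0680%. The 4 features of the 2-micron plasmid, a selfish DNA circle of the yeast nucleus, are classed with the nuclear mRNAs and took 0.140%, 0.120% and 0.117%. Of these, REP1, a partitioning protein, had 74, 62 and 65 reads, and FLP1, the recombinase, had 2, 2 and 4.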
